A study of Arabidopsis thaliana with 16 samples.

Results

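GH9B12 (AT2G44570) and GH9B11 (AT2G44560) are next to each other on chromosome 2 of Arabidopsis thaliana in the order of the RefSeq annotation, and each was measured by 1 probe of its own, probe 1502 and probe 1490. They are 2 of the 691 genes for which the array had a probe that lists no other gene. The array held 3439 probes in all. GH9B12 was chosen by its difference between ppi2 and WT, the strongest fall of any gene measured by its own probe, and GH9B11 was chosen as the adjacent gene of the same family. The difference between the genotypes in these 2 genes is therefore given as a description, without a test.

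The samples compared the wild type (WT), ecotype Wassilevskija, with the ppi2 mutant in the same ecotype, a line defective in the import of precursor proteins into chloroplasts. The mutated gene encodes Toc159, which recognises precursor proteins at the outer chloroplast envelope, and the mutant is known for albino seedlings. There were 8 samples of total RNA per genotype. No label gives a tissue, an age, growth conditions or a batch, or tells samples of separate plants from repeats, so spreads and p-values cover these samples only and may be technical.

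Both genes encode members of glycosyl hydrolase family 9, the plant endoglucanases, which cut the backbone of cellulose-like glucans. Plants carry membrane-anchored members such as KORRIGAN, which takes part in cellulose synthesis (class A), secreted members made of a catalytic domain (class B), and secreted members with an added carbohydrate-binding module (class C). As a group they are known from cell elongation, organ abscission and fruit softening, where walls are loosened or taken apart. On the chromosome GH9B12 and GH9B11 follow GH9B10 (AT2G44550) and GH9B9 (AT2G44540), with no other protein-coding gene in between, so that 4 genes of the family form a row.

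The deposited value was 1 intensity per probe and sample, on a linear scale that ended at 100. The median of a sample was 0.0976 to 0.212 for WT and 0.168 to 0.269 for ppi2, and 13.0% to 16.6% of the probes of a sample were listed at 0. For levels on a log2 scale the samples were quantile-normalized, and values at or under 0.0338 (log2 -4.89) were set to that floor. Samples with consecutive numbers resembled each other most in every case and were averaged, which gave 4 pairs per genotype (n = 4 unless a subset or single samples are named). The WT pairs formed 2 subsets, 1 and 2 against 3 and 4: across all probes the pairs correlated at 0.898 and 0.885 within these subsets and at 0.759 to 0.812 between them. WT pairs 1 and 2 correlated about as well with the ppi2 pairs, at 0.761 to 0.806, and WT pairs 3 and 4 less, at 0.625 to 0.667. This split within WT limits every comparison of the genotypes. Quantile normalization hides a shift of most transcripts. Without it, ppi2 stood 0.30 higher on the log2 scale in the median probe, and 73.4% of the called probes were higher there, in place of 49.6%.

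GH9B12 was clearly present in every WT sample and near the bottom of the scale in every ppi2 sample. Its deposited intensity in WT had a lowest value of 0.866, a median of 0.984 and a highest value of 1.19 over the 8 samples. In ppi2 it was listed at 0 in samples 3 and 4, the median was 0.0566, and the highest value, in sample 1, was 0.0938. All 8 ppi2 samples were thus below all 8 WT samples, and the lowest WT value was 9.24 times the highest ppi2 value. The plot of deposited intensities by sample shows both genes in all 16 samples.

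**Figure D1:**
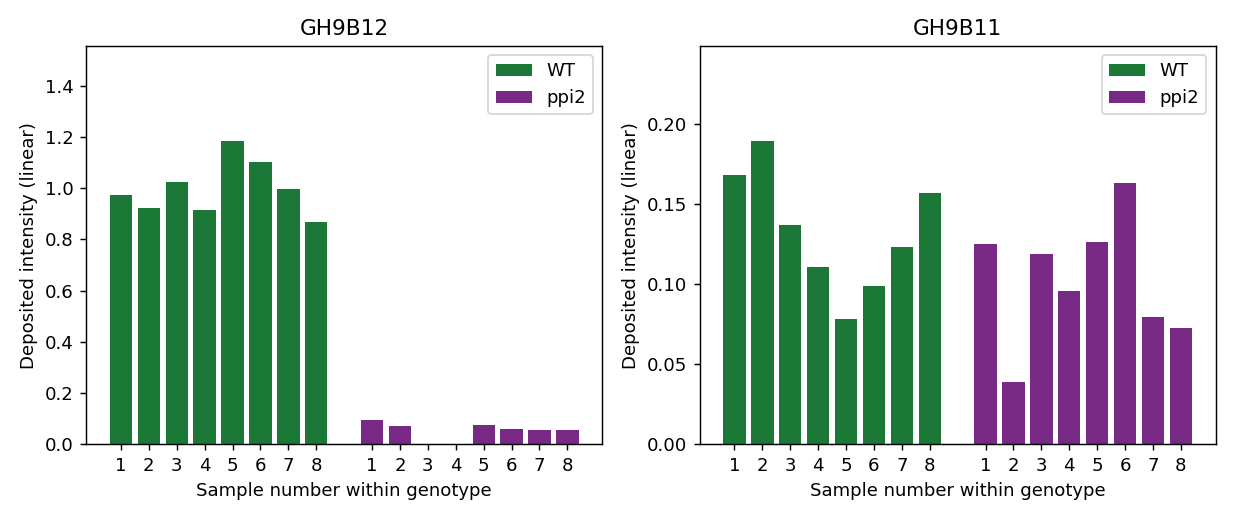
Deposited intensity (linear) of GH9B12 (left) and GH9B11 (right) in WT samples 1 to 8 (green) and ppi2 samples 1 to 8 (purple), 1 bar per sample, with a separate vertical scale for each gene. GH9B12 spans 0.866 to 1.19 in WT and 0 to 0.0938 in ppi2, while 6 of the 8 ppi2 samples of GH9B11 lie within its WT range.

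After normalization the GH9B12 level in the 4 WT pairs was 0.13, -0.25, 0.99 and 1.09 on the log2 scale. In the 4 ppi2 pairs it was -3.92, -4.89, -4.36 and -3.69, where the second pair was at the floor. The WT mean was 0.49 ± 0.66 (SD, n = 4) and the ppi2 mean -4.22 ± 0.53 (SD, n = 4), a difference of -4.71, or 26.1-fold lower in ppi2. These means correspond to normalized intensities of 1.40 and 0.0538. The lowest WT pair was still 10.9-fold above the highest ppi2 pair. Of the 692 probes with 1 listed gene, 13.7% were lower in ppi2 with no overlap of the pairs, and of all 3439 probes 15.7% were. Only 3 of the 3439 probes had a larger fall than GH9B12, and none of them has a gene of its own in the annotation.

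The size of the GH9B12 fall moved with the floor. With the floor raised to the 25th percentile (log2 -3.06) all 8 ppi2 samples were at it and the fall was at least 11.8-fold, the one setting that moved it by more than the spread between pairs. With the floor at the 1st percentile, where only ppi2 samples 3 and 4 were at it, the fall was 38.7-fold. With samples 3 and 4 left out as missing it was 22.3-fold. The sources used here do not say what a zero stands for. In whole-plant or tissue RNA, fewer cells that express a gene and less of its RNA per cell cannot be told apart.

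The rank of the GH9B12 probe within each sample needs no scaling between samples. In WT it stood between percentile 84.5 and 95.0 of all probes, with a median of 91.6. In ppi2 it stood between percentile 8.16 and 27.2, with a median of 22.7, and the lowest ranks were those of samples 3 and 4, tied with all other zeros. By rank, too, the genotypes did not overlap.

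GH9B12 was also among the steadiest probes of WT as deposited, though not after normalization, where its SD over WT pairs was at percentile 55.1 of the probes above the floor in all samples. The coefficient of variation over the 8 WT samples was 10.5%, against a median of 49.0% over the 2568 probes above 0 in every WT sample, and 7 of those probes had a lower one. Among 403 probes whose mean WT intensity was within 2-fold of that of GH9B12, the median was 55.5% and 3 were lower. WT samples 1 to 4 averaged 0.959 and WT samples 5 to 8 averaged 1.04, although the latter samples had the lower medians over all probes. Normalization turned this near-equality into a step: WT pairs 3 and 4 had a normalized intensity of 2.06, which was 2.15-fold that of WT pairs 1 and 2 (0.958). Against WT pairs 1 and 2 alone GH9B12 was 17.8-fold lower in ppi2, and against WT pairs 3 and 4 alone 38.3-fold.

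GH9B11 behaved unlike its neighbour: its intensity was low in both genotypes and the genotypes overlapped. In WT its deposited intensity had a lowest value of 0.0783, a median of 0.130 and a highest value of 0.190 over the 8 samples. In ppi2 the lowest value was 0.0387, the median 0.108 and the highest 0.164. Of the 8 ppi2 samples 6 lay within the WT range and 2, samples 2 and 8, lay below it.

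After normalization the GH9B11 level in the 4 WT pairs was -2.60, -3.19, -2.94 and -1.69 on the log2 scale. The 4 ppi2 pairs were at -4.09, -3.46, -3.12 and -3.31. WT pair 4 was the highest and ppi2 pair 1 the lowest, and 3 of the 4 ppi2 pairs lay below all WT pairs while ppi2 pair 3 lay above WT pair 2. The means were -2.60 ± 0.66 (SD, n = 4) in WT and -3.49 ± 0.42 (SD, n = 4) in ppi2, a difference of -0.89 or 1.86-fold lower in ppi2. Of all 3439 probes, 21.3% had a larger fall.

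The GH9B11 value rested in part on single samples. In ppi2 pair 1 the 2 samples had deposited intensities of 0.125 and 0.0387, a gap of 1.60 on the log2 scale after normalization. The lower of them, sample 2, was set to the floor, so this gap and the level of the pair depend on it. The widest gap within a WT pair was 0.47. Without WT pair 4 the difference was -0.59, and without ppi2 pair 1 it was -0.69. As deposited it was -0.43, on a scale where the median probe stood 0.30 higher in ppi2. By rank the probe stood between percentile 31.3 and 68.7 in WT and between percentile 18.3 and 38.6 in ppi2, so the ranges overlapped.

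The fall of GH9B12 exceeded that of GH9B11 by 3.81 on the log2 scale. GH9B11 was nearer the floor in WT, at -2.60, and could not have shown as large a fall. Both genes were higher after normalization in WT pairs 3 and 4 than in WT pairs 1 and 2, by 2.15-fold and 1.50-fold. As deposited only GH9B12 was, since GH9B11 averaged 0.151 in WT samples 1 to 4 and 0.114 in WT samples 5 to 8.

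The other 2 genes of the row, GH9B9 and GH9B10, had no probe of their own, but probe 1478 lists both. Its value cannot be assigned to either. It rose in ppi2, with mean normalized intensities of 0.0660 and 0.268 (log2 difference 2.02 ± 0.39 SE, 4.07-fold, limma with Benjamini-Hochberg adjusted p = 0.0106). Deposited intensities ran from 0.00157 to 0.104 with a median of 0.0573 in WT, and from 0.242 to 0.444 with a median of 0.315 in ppi2. All ppi2 samples were above all WT samples, the opposite order to GH9B12. Of the 870 probes that list several genes, 15.7% were higher in ppi2 with no overlap of the pairs and 26.9% passed the test. Its adjusted p stayed under 0.05 in all 20 alternatives.

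Probe 1466 lists all 4 genes of the row, GH9B12 and GH9B11 included. It was dim in both genotypes, with deposited intensities of 0.00194 to 0.122 in WT and 0 to 0.0882 in ppi2. The log2 levels of its WT pairs were -4.89, -4.28, -2.94 and -3.23, and those of its ppi2 pairs -4.89, -4.83, -4.28 and -4.37. The difference was -0.75. It was -0.01 when only WT pairs 1 and 2 were used, and -1.50 when only WT pairs 3 and 4 were. The WT mean of this probe, -3.84, was near the floor of -4.89, and WT pair 1 was at it. Probe 1466 had no room for a fall as large as that of the GH9B12 probe. Whether it shares that fall could therefore not be tested. The sequences of the probes are not used here, and how much signal near-identical family members share on any of these probes was not tested.

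**Figure D2:**
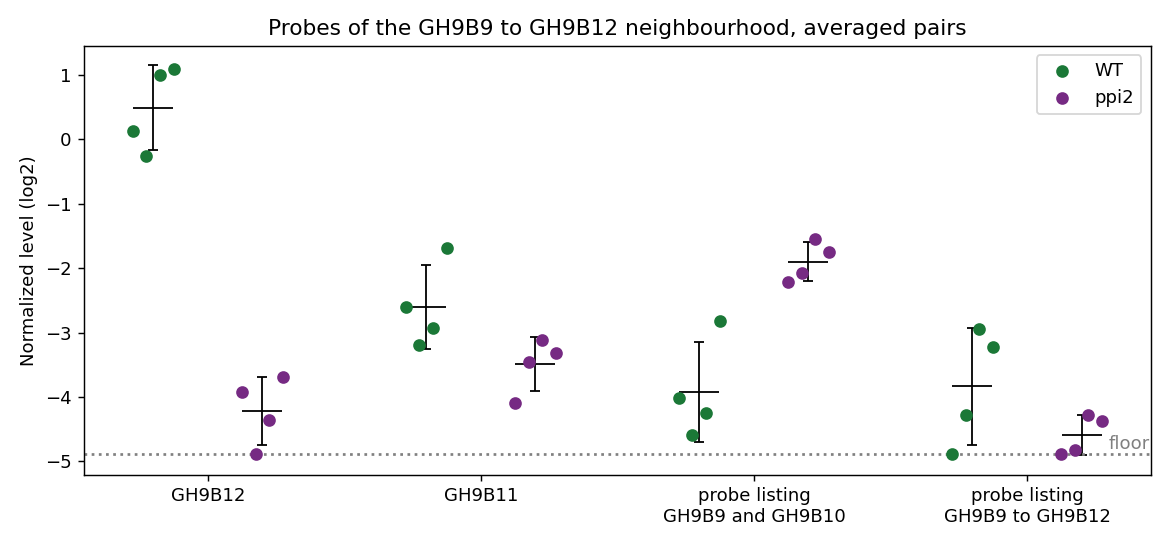
Normalized log2 level of the 4 probes that list genes of the GH9B9 to GH9B12 row, with 1 point per averaged pair (WT green, ppi2 purple), black marks for the mean ± SD (n = 4) and a dotted line at the floor of -4.89. The ppi2 minus WT difference is -4.71 for GH9B12 and 2.02 for the probe that lists GH9B9 and GH9B10. Levels of different probes are not comparable with each other.

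Across the whole family, 12 of the 25 GH9 genes are listed on at least 1 of 11 probes. Besides GH9B12 and GH9B11, GH9B8 (AT2G32990) and GH9B16 (AT4G38990), both secreted class B enzymes by their names, had a probe of their own. Neither passed the test, and neither had an unadjusted p under 0.05. GH9B8 was listed at 0 in 5 WT and 3 ppi2 samples and differed by 0.09 ± 0.15 SE (limma adjusted p = 0.731). As 7 WT and 5 ppi2 samples were at the floor, the floor largely set that difference and its SE. GH9B16 differed by 0.92 ± 0.60 SE (limma adjusted p = 0.312). GH9B16 was at the floor in WT pairs 3 and 4, while against WT pairs 1 and 2 the difference was -0.05. Against WT pairs 3 and 4 alone GH9B16 was 1.88 higher (limma adjusted p = 0.0103). Both of these pairs had been set to the same floor value, so that p-value takes in no observed spread within WT. Of the 692 probes with 1 listed gene, 28.0% passed.

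Beyond the row, 5 more probes list several genes of the family, and with probe 1478 that makes 6, of which 2 rose, 1 fell and 3 did not pass, where 26.9% of the 870 probes that list several genes passed. Probe 2884, which lists GH9B14 and GH9B15, was listed at 0 in all 8 WT samples and had intensities of 0.333 to 1.27 in ppi2 (limma adjusted p = 1.06e-05). All its WT pairs were at the floor, so that p-value takes in no observed spread within WT. The size of its rise followed the floor, at 2.56 with the 25th percentile and 6.66 with the 1st percentile (log2). Probe 2019 lists the same 2 genes and was at 0.00801 to 0.421 in WT and 0.354 to 1.16 in ppi2. Its difference was 1.80 ± 0.80 SE and did not pass (limma adjusted p = 0.145). It did pass with pair membership as a random block (limma adjusted p = 0.0253). It also passed with every sample as its own replicate (limma adjusted p = 0.0141), a fit that treats the alike samples of a pair as independent.

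Probe 1540, which lists the class C genes GH9C2 and GH9C3, fell 2.12-fold (-1.08 ± 0.23 SE, limma adjusted p = 0.0132), with all ppi2 pairs below all WT pairs, as in 14.4% of the probes that list several genes. In the values as deposited its difference was -0.39 and did not pass (limma adjusted p = 0.129). Probe 3160, which lists GH9B16, GH9B17 and GH9B18, differed by 0.57 ± 1.19 SE (limma adjusted p = 0.796), with WT pairs 3 and 4 at the floor. Against WT pairs 3 and 4 alone probe 3160 was 2.65 higher (limma adjusted p = 0.0126), again with no observed spread within WT. Probe 2890, which lists GH9B17, GH9B18 and a further gene, was at the floor in every sample. Probes that list a gene of this family thus differed in both directions, as the plot of all differences shows.

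**Figure D3:**
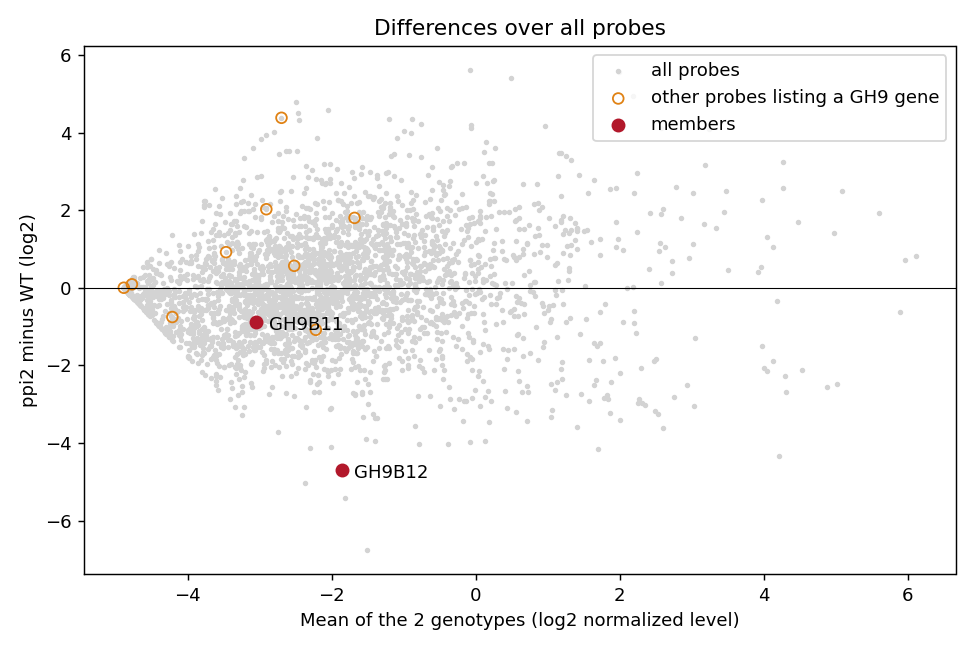
Log2 difference, ppi2 minus WT, against the mean log2 level of both genotypes for all 3439 probes (grey), with the 9 other probes that list a GH9 gene circled in orange and the 2 genes in red. GH9B12, at -4.71, lies at the lower edge of all probes, and GH9B11, at -0.89, lies within the bulk.

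Other genes of the cell wall could hardly be set beside them. Lists of 456 genes in all were drawn up for the GH9 family, cellulose synthesis, xyloglucan, expansins, pectin, other glycosyl hydrolases, structural wall proteins and lignin, and 5 of them were measured by a probe with no other gene. Besides the 4 GH9 genes this was CSLA01 (AT4G16590) in the cellulose synthesis list, a cellulose synthase-like protein of a family known for making mannan backbones. CSLA01 fell 3.24-fold (-1.70 ± 0.33 SE, limma adjusted p = 0.0108). Its WT pairs were at -3.45, -2.84, -2.63 and -2.06 and its ppi2 pairs at -4.64, -4.27, -4.89 and -3.97 on the log2 scale, without overlap. With the floor raised to the 25th percentile CSLA01 differed by -0.42 and did not pass (limma adjusted p = 0.207). Over GH9B8, GH9B16 and CSLA01 the median difference was 0.09, beside 0.00 over all 692 probes with 1 listed gene. That median is the value of GH9B8, which was at the floor in 7 WT and 5 ppi2 samples. It therefore does not describe wall genes as a group. The remaining 6 lists had 0 measured genes.

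Genes near the row were compared as well, taking the 5 nearest with a probe of their own on each side. Of these 10 genes 2 rose, 0 fell and 8 did not pass, where 28.0% of the 692 probes passed. The nearest was AT2G44530, 3 protein-coding genes before GH9B11, at -0.55 ± 0.32 SE (limma adjusted p = 0.250). It passed without WT pair 2 (-0.84, limma adjusted p = 0.0235) and against WT pairs 3 and 4 alone (-0.81, limma adjusted p = 0.0494), and it was 0.17 higher in ppi2 as deposited. The nearest on the other side was AT2G44760, 22 genes after GH9B12, which had normalized intensities of 0.970 in WT and 0.950 in ppi2, and whose log2 difference as deposited was 0.93 (limma adjusted p = 0.153).

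Both genes that rose lay far from the row. AT2G46050, 150 genes after GH9B12, rose 6.12-fold (2.61 ± 0.52 SE, limma adjusted p = 0.0110). With pair numbers as a replicate block AT2G46050 did not pass (limma adjusted p = 0.0512). AT2G46190, 163 genes after GH9B12, rose 1.97-fold (0.98 ± 0.25 SE, limma adjusted p = 0.0279). The AT2G46190 call was lost in 7 alternatives (limma adjusted p from 0.0512 to 0.176). Among those that did not pass, ETFQO (AT2G43400), an oxidoreductase that passes electrons from a flavoprotein to ubiquinone, differed by -0.57 ± 0.40 SE. GLX2-1 (AT2G43430) was at the floor in all WT samples.

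**Figure D4:**
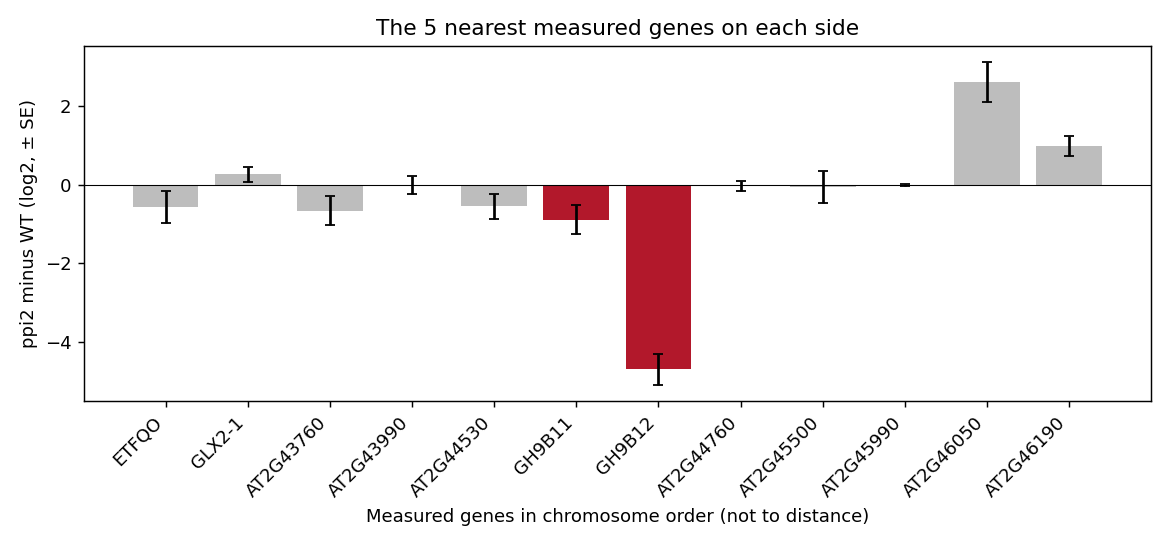
Log2 difference, ppi2 minus WT, of GH9B11 and GH9B12 (red) and of the 5 nearest genes with a probe of their own on each side (grey), in chromosome order and not to distance, with bars for the SE of the fit (n = 4 pairs per genotype). No neighbour lies below -0.66, while GH9B12 lies at -4.71.

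The profiles most like that of GH9B12 were found by the root mean square difference between log2 levels over the 8 pairs, each profile centred on its own mean. The nearest were AT5G53920 (0.90), LHB1B2 (AT2G34420, 0.92), which binds chlorophyll in the light-harvesting antenna, AT3G06570 (0.95), PRA1.B6 (AT5G07110, 0.96), a prenylated RAB acceptor, and AT2G35490 (1.06). Over all genes with a probe of their own the median distance was 2.41. Their falls lay between 6.81-fold and 9.11-fold, so each of these genes fell less than GH9B12. All are strong falls, and they share the samples and the scaling, so the likeness is a description.

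For GH9B11 the nearest profiles were AT2G43760 (0.24), AT4G09620 (0.25), AT1G31220 (0.32), AT1G11730 (0.35) and AT1G15140 (0.35), against a median distance of 0.86. Their differences ran from -0.50 for AT1G31220 to -1.35 for AT1G15140, whose ppi2 pairs were all at the floor. As deposited AT4G09620 was 0.15 higher in ppi2, in place of -0.81. AT2G43760 was also one of the 5 nearest measured genes on its side of the row, 85 genes away, at -0.66 ± 0.37 SE (limma adjusted p = 0.233). No gene was among the 5 nearest profiles of both GH9B12 and GH9B11.

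The order of the 2 genes held in each processing that was tried. GH9B12 had been chosen by its fall in these same samples, so this describes the effect of processing only. The GH9B12 difference ran from -5.28 to -3.55 on the log2 scale over 20 alternatives, and that of GH9B11 from -1.18 to -0.43. The plot of differences by processing shows both.

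**Figure D5:**
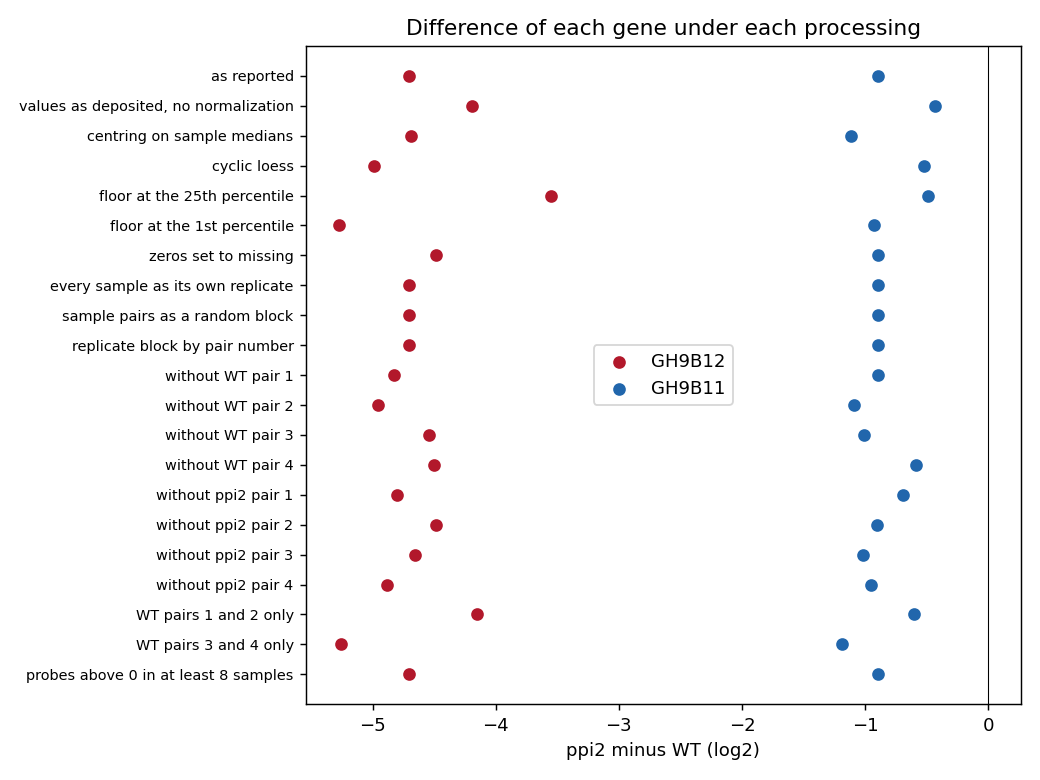
Log2 difference, ppi2 minus WT, of GH9B12 (red) and GH9B11 (blue) as reported and under each of 20 alternatives. GH9B12 stays between -5.28 and -3.55 and GH9B11 between -1.18 and -0.43, so the values of the 2 genes do not overlap. GH9B11 was nearer the floor in WT and had less room to fall. All alternatives reuse the same samples, so their range is not a spread between samples.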

How the data were processed

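The deposited table held 1 linear intensity per probe and sample. How the authors quantified, background-corrected or scaled the spots: not given in the sources used here. All 16 columns were mapped by their labels. Probes were named through the platform's older annotation, with 692 probes listing 1 gene, 870 several and 1877 none, and the RefSeq table of TAIR10.1 was used for names and gene order only. Values were quantile-normalized, floored at the 5th percentile of positive values, put on a log2 scale and averaged over consecutive samples. Differences were fitted over all 3439 probes with limma 3.58.1 in R 4.3.3 (lmFit, eBayes, Benjamini-Hochberg, threshold 0.05). The fit was tried on simulated independent normal values without a floor, zeros or WT subsets, so that trial does not cover these features of the data.

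Members, lists and settings were chosen with earlier results of these data known. Named genes were both members, GH9 genes, measured wall genes, the 5 nearest profiles and the 5 nearest measured genes per side. Wall lists were matched on symbols and synonyms. Arrays carry no read depth, so their number and the dim end of the scale limit precision. No sequences are given, since none were used here.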

Additional observations from a re-analysis of the deposited data

Results flagged for a closer look

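Among the genes and probes named, 62 groups of 4 pairs were examined, and 3 held a pair far from the other 3, where a rate of 1 in 20 would give 3.1. Probe 1540, which lists GH9C2 and GH9C3, was at -2.39 on the log2 scale in ppi2 pair 4, against -2.89 to -2.88 in the other ppi2 pairs. In WT pair 2, GH9B8 had a level of -4.62, and its remaining WT pairs sat at the floor (-4.89), a tie for which that rate does not hold. GH9B8 was also at -4.31 in ppi2 pair 2, against -4.89 to -4.84 in the others. No pair of GH9B12 or GH9B11 stood apart in this way.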

How the results depend on the processing

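GH9B12 and GH9B11 kept their direction in all 20 alternatives, and the size of the GH9B12 difference left the spread between pairs with the floor at the 25th percentile of intensities (-3.55), where all 8 ppi2 samples were at it, as were 7 of GH9B11. That floor left 1 called gene in the wall lists in place of 2. The number of called probes was 984, and 1616 when all samples counted singly, with n = 8 per genotype, and 686 without ppi2 pair 3. With pair numbers as a replicate block the GH9B12 difference was -4.71, 846 probes were called, and AT2G46050 did not pass (limma adjusted p = 0.0512). The deviations of same-numbered WT and ppi2 pairs correlated at 0.381, 0.307, 0.0313 and 0.330. Each ppi2 pair correlated best with the WT pair of its own number. WT pair 3, however, correlated better with ppi2 pair 4 (0.0569) than with ppi2 pair 3. For that reason the main fit did not take the numbers to pair the samples, and whether they do was not settled.

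Some differences that had not passed changed sign, and the cause was not tested. As deposited AT4G09620 was at 0.15, AT2G43990 was at 0.39, AT2G45500 at 0.58, AT2G44530 at 0.17 and AT2G44760 at 0.93. After cyclic loess AT2G43990 was at 0.30 and AT2G45500 at 0.0244, and after centring on sample medians AT2G44760 was at 0.24. Against WT pairs 1 and 2 alone AT2G43990 was at 0.29, AT2G45500 at 0.33, GH9B16 at -0.0452 and probe 3160 at -1.52, and against WT pairs 3 and 4 alone AT2G44760 was at 0.0527. With the floor at the 25th percentile GH9B16 was at -0.0443 and probe 3160 at -0.30, and with zeros set to missing probe 3160 was at -1.52. With 1 pair left out at a time AT2G43990 ran from -0.14 to 0.13, AT2G45500 from -0.45 to 0.14, AT2G44760 from -0.0956 to 0.0691, GH9B8 from -0.0511 to 0.16 and probe 3160 from -0.13 to 1.34. Of 575 other values 510 kept their direction and side of the threshold, or stayed within the spread. With zeros set to missing, probes 2884 and 2890 and AT2G45990 gave no value, nor did the filter on probes above 0 for probe 2890 and AT2G45990. The dim end of the scale limits GH9B11 and every fold that meets the floor.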
